A study of Rattus norvegicus with 8 samples.

Results

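Aminoacyl-tRNA synthetases load each transfer RNA (tRNA) with its amino acid, the step that supplies ribosomes with building blocks. RNA of rat thoracic aorta was measured for 36 of these genes among 27742 rows of the deposited gene table, 21 of the cytosol and 15 of the mitochondrion. The genes were taken by symbol, from the alanine enzyme (Aars) to the tyrosine enzyme (Yars), and a symbol ending in 2 was counted as mitochondrial, except the threonine enzyme Tarsl2. Only Cars2 had more than 1 row, so 37 rows matched, and the row of higher mean over all 8 libraries was kept. For Cars2 the row was thus selected on its mean FPKM over all libraries, the only measured value used in the choice, and it does not separate the groups. A row named Mars2 was not among those matched, and the mitochondrial glutamate enzyme, Ears2, lies outside this naming rule and is described with the accessory genes.

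The nitroglycerin group of 4 libraries came from rats injected subcutaneously with nitroglycerin (glyceryl trinitrate, a nitrate vasodilator) at 100 mg/kg, with 3 doses daily over 3 days. A further 4 libraries came from control rats that received the ethanol vehicle on that schedule. All rats were wild-type male Sprague Dawley, labelled as aged 12 weeks and weighing 180 to 200 g, a weight that is low for that age. Whole thoracic aorta was used, and ribosomal RNA was removed with the Ribo-Zero Gold kit, although the extraction text in the labels mentions an adipose type. The study asked which transcripts differ in aorta made tolerant to nitroglycerin. Whether each library stands for a separate rat is not stated, and p-values therefore describe only the spread between these 8 samples, which may be technical.

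Cytosolic and mitochondrial synthetases are, with few exceptions, separate nuclear genes, and the mitochondrial enzymes are made in the cytosol and imported. Kars (lysine) and Gars (glycine) each supply both compartments from a single gene. Several cytosolic enzymes sit together in the multi-synthetase complex, held by scaffold proteins, and the rest work free of it. The enzymes form class I and class II, which have unrelated catalytic folds. When an amino acid runs short, uncharged tRNA activates the kinase Gcn2 (Eif2ak4), the transcription factor ATF4 accumulates, and ATF4 raises transcription of many cytosolic synthetases in mammalian cells. In blood vessels, secreted forms of the human tyrosine and tryptophan enzymes act on endothelial cells, and the serine enzyme is needed for vessel development in zebrafish.

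Values are FPKM, fragments normalised to transcript length and to the mapped total of the library, which is a relative scale. Aligned sequence was 6.77 to 8.39 Gb in nitroglycerin libraries and 7.48 to 8.86 Gb in controls (exact permutation test, two-sided, p = 0.343, 4 libraries per group). Most genes had higher FPKM in the nitroglycerin libraries: over the 12977 rows that reached 1 FPKM in 4 or more libraries, the median difference on the log2(FPKM + 1) scale was 0.30, and 86.6% of rows were above 0. Rescaling each library by its median-of-ratios factor, 1.06 to 1.20 in nitroglycerin libraries and 0.734 to 0.986 in controls, brought that median to 0.01. Both scales are therefore given. Control replicate 1 had the smallest factor and was the lowest control for 20 of 21 cytosolic and 15 of 15 mitochondrial synthetase genes. The smooth muscle markers that define the aortic media were abundant, summing to 1331 to 2715 FPKM in nitroglycerin libraries and 2180 to 2849 FPKM in controls over 7 measured genes.

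As deposited, synthetase RNA was higher in nitroglycerin than in control aorta for 34 of 36 genes by group mean. Beside this, 86.6% of all tested rows had a log2 difference above 0. The test was passed by 2 genes, Tars2 and Wars. The 15 mitochondrial genes were all higher by mean, beside 87.5% of tested rows above 0 in their range of means. The 2 genes with lower means were the cytosolic Cars and Nars, and neither passed the test. After rescaling, 26 of the 36 genes had a log2 difference above 0, 14 of 15 mitochondrial and 12 of 21 cytosolic. Of the 36, the 34 that reached 1 FPKM in 4 or more libraries were tested. Pars2 and Sars2, for proline and serine in the mitochondrion, were too low. By limma with Benjamini-Hochberg adjustment over all 12977 rows, 2 synthetase genes were higher at an adjusted p under 0.05 and 0 were lower, where 1.29% of all tested rows were called higher and 0.0616% lower. At an unadjusted p under 0.05, limma had 23 synthetase genes higher and 0 lower, against 34.1% and 1.02% of all tested rows. After median-of-ratios rescaling limma called 0, against 0.0308% of tested rows called higher and 0.1% lower, with 5 higher and 3 lower at the unadjusted threshold, against 5.5% and 6.44% of rows.

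The libraries did not overlap between groups, with every nitroglycerin library above every control, for 23 of the 36 genes, a share of 63.9%. The same held for 24.2% of all tested rows, and for 24.4% of the 11996 tested rows whose mean lay within the range of the synthetase genes. After rescaling it held for 5 synthetase genes, among them Tars2, Wars, Lars and Nars2, against 3.78% of all tested rows and 3.89% of those in the same range of means. No synthetase gene had every nitroglycerin library below every control on either scale, against 0.478% of tested rows as deposited and 4.45% after rescaling. Over the 36 genes, log2 differences had a median of 0.34 on the deposited scale and 0.08 on the other, beside 0.30 and 0.01 for all tested rows. These counts hold 7 genes that passed the low-value filter with fewer than 4 controls at 1 FPKM, of which Yars2 had none, and no test was made on the set as a whole.

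**Figure D1:**
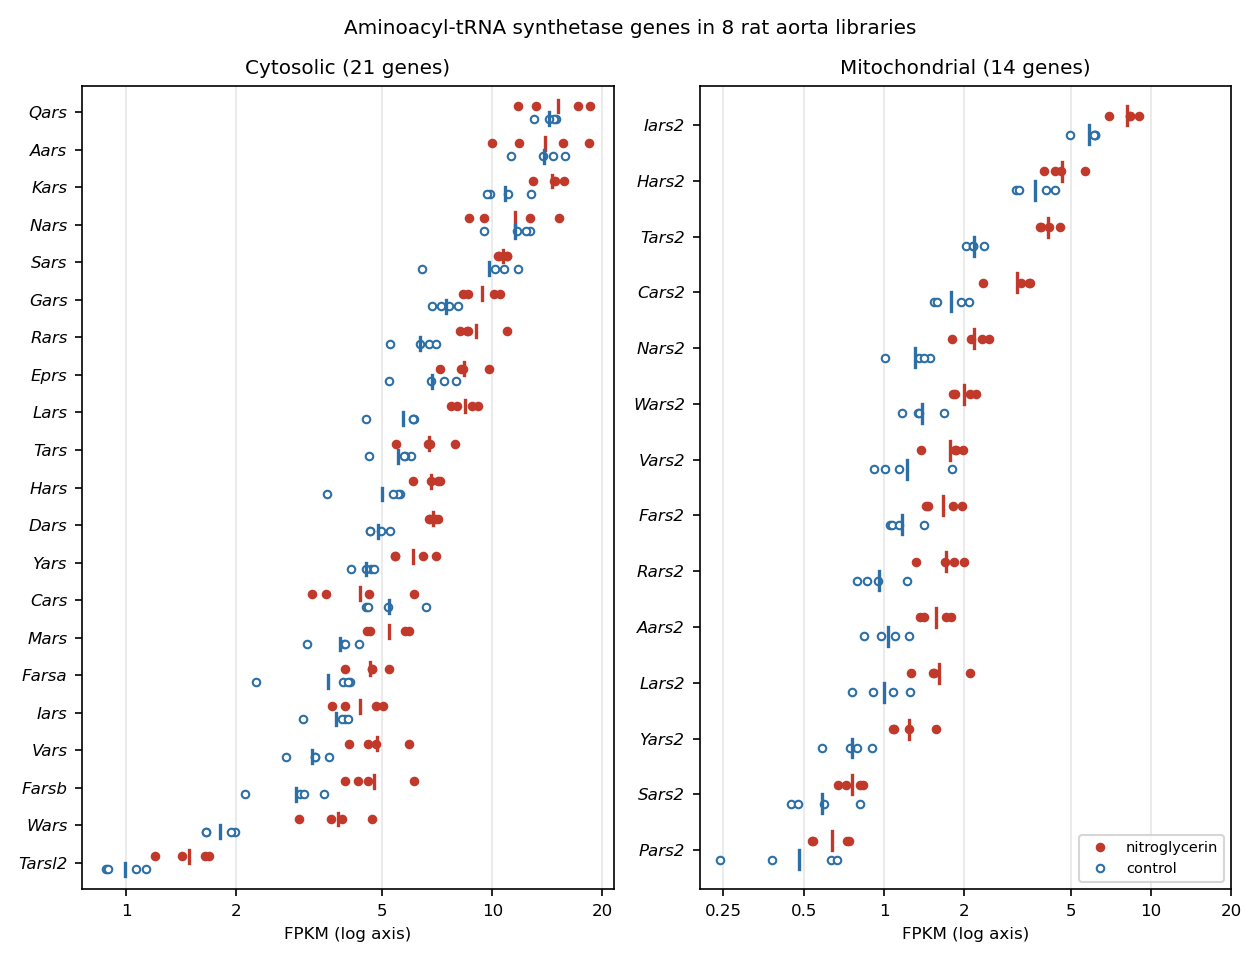
FPKM of 35 of the 36 synthetase genes (rows, ordered by mean) in 4 nitroglycerin libraries (filled red points) and 4 control libraries (open blue points), on log axes, with group means as vertical lines. Red points lie wholly to the right of the blue ones in 12 of 21 cytosolic and 10 of 14 plotted mitochondrial genes, while Cars, Nars, Aars and Qars overlap broadly.

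Tars2 charges mitochondrial tRNA with threonine. Its level was 3.85, 3.88, 4.58 and 4.15 FPKM in the 4 nitroglycerin libraries, against 2.02, 2.15, 2.16 and 2.36 FPKM in the 4 controls. The lowest nitroglycerin library stood well above the highest control, and each group was tight. The means were 4.11 ± 0.337 and 2.17 ± 0.141 FPKM (SD, n = 4 per group), a ratio of 1.89, and the log2 difference was 0.69 with a standard error (SE) of 0.10 (limma adjusted p = 0.0413). After rescaling the log2 difference was 0.40 (limma adjusted p = 0.131), so the call was lost while the groups still did not overlap. Leaving out any of 6 of the 8 libraries also ended the call, with limma adjusted p between 0.0825 and 0.113, and it was kept without nitroglycerin replicate 2 or control replicate 2.

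Its cytosolic counterpart Tars read 5.45, 6.69, 7.93 and 6.76 FPKM in nitroglycerin aorta, against 4.59, 6.01, 5.79 and 5.72 FPKM in controls. The groups overlapped, and its log2 difference of 0.24 did not pass (limma adjusted p = 0.225). Tarsl2, a second threonine enzyme outside the mitochondrion, averaged 1.49 ± 0.223 FPKM in nitroglycerin libraries and 0.992 ± 0.125 FPKM in controls (SD, n = 4 per group). Of the 3 threonine genes, only the mitochondrial one passed the test.

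Wars charges cytosolic tRNA with tryptophan, and in human cells it is induced by interferon gamma. It had 2.96, 4.68, 3.63 and 3.87 FPKM in nitroglycerin libraries, against 1.65, 1.98, 1.65 and 1.93 FPKM in controls. All 4 nitroglycerin libraries were above the controls, with replicate 2 the highest and replicate 1 the lowest. The means of 3.79 ± 0.709 and 1.80 ± 0.177 FPKM (SD, n = 4 per group) had a ratio of 2.10, and the log2 difference of 0.76 (SE 0.13) was the largest of the 34 tested genes (limma adjusted p = 0.0475). After rescaling it was 0.48 (limma adjusted p = 0.206). The call was kept without nitroglycerin replicate 2 and was lost without any of the other 7 libraries, with limma adjusted p of 0.0528 to 0.122.

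Wars2, the mitochondrial tryptophan enzyme, read 2.21, 1.84, 1.82 and 2.10 FPKM in nitroglycerin libraries, against 1.16, 1.34, 1.68 and 1.35 FPKM in controls. These groups were also apart, by a narrower margin, and the log2 difference of 0.33 did not pass (limma adjusted p = 0.0965). For tryptophan the cytosolic gene had the larger difference and for threonine the mitochondrial one, and the difference between partners was not tested.

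Dars and Cars2 had p-values close to the threshold and missed it. Dars, the cytosolic aspartate enzyme of the multi-synthetase complex, had 7.11, 6.76, 6.70 and 6.98 FPKM in nitroglycerin libraries, against 4.62, 4.62, 4.96 and 5.24 FPKM in controls. Both groups were tight, with a log2 difference of 0.43 (limma adjusted p = 0.0573) that came to 0.10 after rescaling.

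Cars2, the mitochondrial cysteine enzyme, had 3.48, 2.36, 3.52 and 3.25 FPKM in nitroglycerin libraries, against 1.54, 1.58, 1.95 and 2.08 FPKM in controls. The groups were apart, with nitroglycerin replicate 2 closest to the controls, and the log2 difference was 0.57 (limma adjusted p = 0.0589). The second Cars2 row was an assembled non-coding transcript inside an intron, on chromosome 16 from 83314676 to 83316771 on the plus strand as the lncRNA table gives it, with 2 exons and 1760 bases. It had 1.61, 1.17, 1.75 and 1.80 FPKM in nitroglycerin libraries, against 0.742, 0.738, 1.23 and 0.899 FPKM in controls. Its groups overlapped through nitroglycerin replicate 2 and control replicate 3, and it was not counted with the coding row.

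The other mitochondrial genes had higher p-values. Nars2, for asparagine, averaged 2.17 ± 0.292 FPKM in nitroglycerin libraries and 1.31 ± 0.212 FPKM in controls, and stayed apart between groups on both scales. Iars2, for isoleucine and the most abundant mitochondrial member, averaged 8.16 ± 0.878 and 5.85 ± 0.591 FPKM in the nitroglycerin and control groups (SD, n = 4 per group). Rars2, Lars2, Aars2, Yars2 and Fars2, for arginine, leucine, alanine, tyrosine and phenylalanine, were also without overlap, at ratios of means of 1.79, 1.61, 1.51, 1.64 and 1.43. All had group means under 2 FPKM. Hars2 and Vars2, for histidine and valine, overlapped between groups, at ratios of 1.26 and 1.45. The untested Pars2 ranged over 0.539 to 0.740 FPKM in nitroglycerin libraries and 0.244 to 0.666 FPKM in controls, and Sars2 over 0.674 to 0.835 FPKM and 0.450 to 0.816 FPKM, so both overlapped. The 15 log2 differences had a median of 0.35, or 0.12 on the rescaled values, when 14 of 15 were above 0.

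In the cytosol, the 8 genes of the multi-synthetase complex had higher means throughout, by ratios of 1.06 to 1.48. Lars, the leucine enzyme, which in mammalian cells also senses leucine for the growth kinase mTORC1, had 8.03, 7.74, 9.16 and 8.82 FPKM in nitroglycerin libraries, against 4.53, 6.07, 6.11 and 6.07 FPKM in controls. The groups were apart and remained so after rescaling, while the log2 difference of 0.50 missed the threshold (limma adjusted p = 0.0615). Dars, Rars, Kars and Mars, for aspartate, arginine, lysine and methionine, were apart as deposited only. Eprs, the fused glutamate and proline enzyme, and Iars, for isoleucine, overlapped. Qars, for glutamine and the most abundant of all, ranged over 11.7 to 18.5 FPKM in nitroglycerin libraries and 13.0 to 14.9 FPKM in controls, so the spread was wider in the nitroglycerin group, and its log2 difference of 0.06 turned to -0.30 after rescaling. Iars has a near copy in the table, LOC103690033, with 1.97 to 2.86 FPKM in nitroglycerin libraries and 1.88 to 2.20 FPKM in controls. Reads could be split between these rows, and the Iars value is uncertain for that reason.

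Among the 13 free cytosolic enzymes, Farsb and Farsa encode the beta and alpha subunits of the phenylalanine enzyme, which work as a pair. Farsb averaged 4.74 ± 0.952 FPKM in nitroglycerin libraries and 2.91 ± 0.571 FPKM in controls without overlap, and Farsa 4.64 ± 0.516 and 3.57 ± 0.878 FPKM with overlap (SD, n = 4 per group). Vars, Yars, Hars and Gars, for valine, tyrosine, histidine and glycine, were likewise apart, at ratios of means of 1.51, 1.35, 1.36 and 1.26, as was Tarsl2. Sars, for serine, averaged 10.7 ± 0.326 and 9.78 ± 2.33 FPKM in nitroglycerin and control libraries (SD, n = 4 per group), with control replicate 1 at 6.43 FPKM far under the other controls. As a median, the log2 difference was 0.32 over the free enzymes and 0.38 over the complex, and 0.02 and 0.04 after rescaling.

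Cars, Nars and Aars, for cysteine, asparagine and alanine, were the only tested members with a log2 difference under 0. Cars had 3.51, 6.10, 4.61 and 3.21 FPKM in nitroglycerin libraries, against 4.51, 6.58, 5.19 and 4.57 FPKM in controls. The groups overlapped, with nitroglycerin replicate 2 among the controls and replicates 1 and 4 under all of them, and the log2 difference was -0.23 (limma adjusted p = 0.370). Rescaling made it -0.55, with an unadjusted limma p of 0.0187 and an adjusted p of 0.310.

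Nars had 8.66, 9.49, 15.2 and 12.7 FPKM in nitroglycerin libraries, against 9.47, 12.7, 12.4 and 11.7 FPKM in controls. Aars had 9.99, 18.4, 15.6 and 11.8 FPKM in nitroglycerin libraries, against 11.3, 15.8, 14.6 and 13.7 FPKM in controls. For both genes the nitroglycerin libraries lay on either side of the controls, and the log2 differences were -0.03 and -0.02 (limma adjusted p = 0.917 and 0.956). The differences of these 2 genes were under the spread between libraries, and their sign depended on single libraries. Aars2, the mitochondrial alanine enzyme, had 1.71, 1.41, 1.79 and 1.37 FPKM in nitroglycerin libraries, against 0.841, 0.978, 1.09 and 1.24 FPKM in controls. It was without overlap, and its log2 difference of 0.34 did not pass (limma adjusted p = 0.117).

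**Figure D2:**
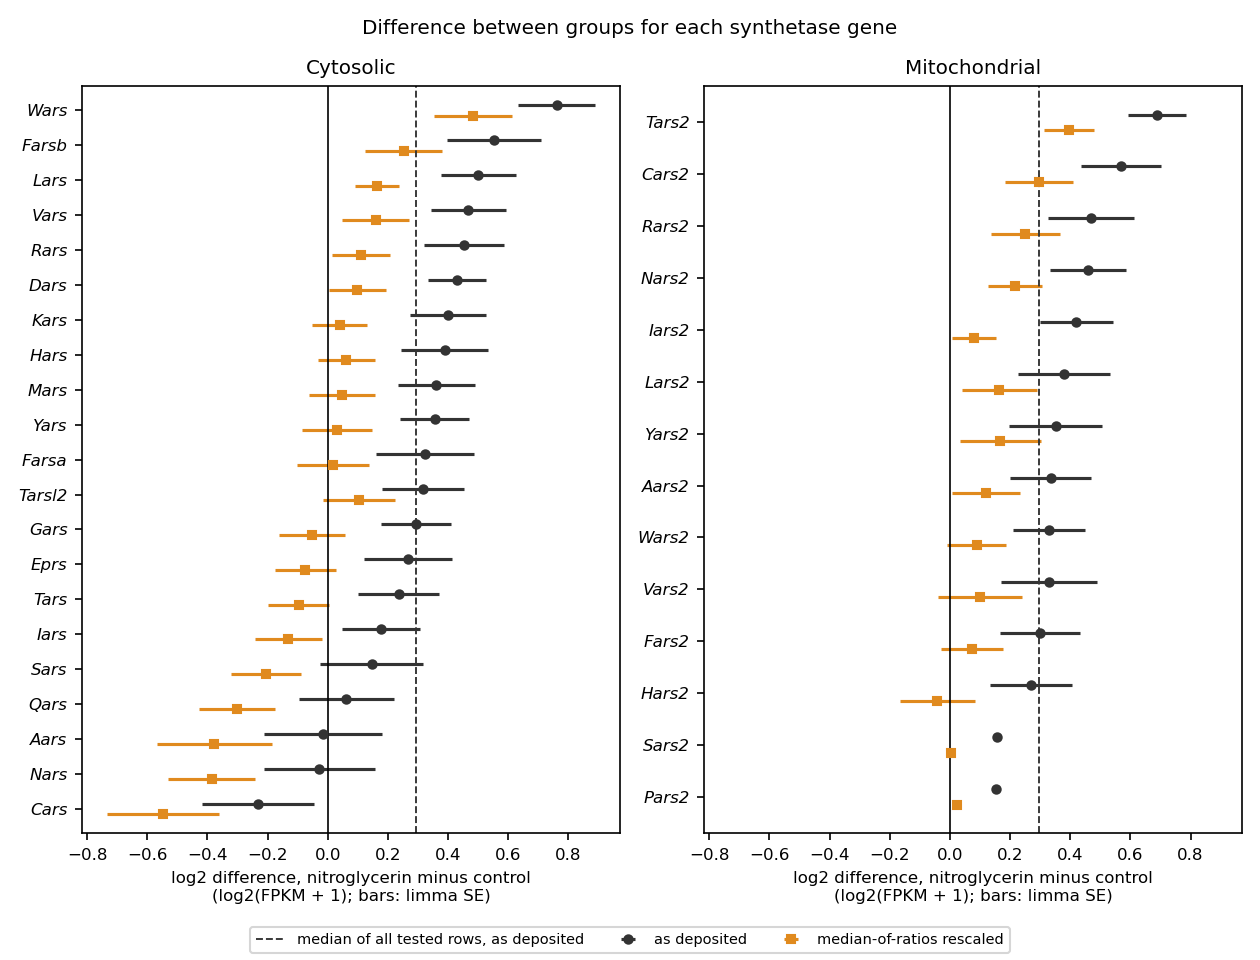
Difference of 35 genes between nitroglycerin and control libraries on the log2(FPKM + 1) scale, as deposited (black circles) and after median-of-ratios rescaling (orange squares), with limma standard errors for the 33 tested genes among them and the median of all tested rows as a dashed line. As deposited, Cars, Nars and Aars are the only points under 0, and after rescaling 13 of 14 plotted mitochondrial and 12 of 21 cytosolic genes are above 0.

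Promoter sequence was set beside these differences because many cytosolic synthetase genes are known ATF4 targets. RefSeq promoter windows of the GRCr8 build, from 250 bases before to 50 after the start, were matched for 32 of the 36 genes, several under a newer symbol such as Aars1. The letters TGATGNAA of the C/EBP-ATF element, through which ATF4 acts, occurred on either strand in 7 of 18 matched cytosolic genes and in 0 of 14 mitochondrial ones, beside 3.98% of all 33469 windows. The 7 genes were Aars, Cars, Iars, Mars, Nars, Tars and Yars. A match describes letters in this window only and shows no binding. The same search found the letters in 9 of 34 matched genes listed for the amino acid response, described below. Asns, a standard ATF4 target, was not among those 9. A window without the letters therefore does not mark its gene as outside ATF4 control. The stretches are printed 5′ to 3′ on the gene's strand with the element in capitals, to show the shared letters. Where a window held more than 1 match, the one nearest the start is printed. TTGCATCA is TGATGCAA read on the other strand.
Aars, chr19:55908480-55908509 on the plus strand, element 9 bases after the start: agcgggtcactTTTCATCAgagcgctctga
Cars, chr1:208225334-208225363 on the minus strand, element 17 bases after the start: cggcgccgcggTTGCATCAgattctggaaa
Iars, chr17:15193658-15193687 on the minus strand, element 24 bases before the start: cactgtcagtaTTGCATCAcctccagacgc
Mars, chr7:65023752-65023781 on the minus strand, element 17 bases before the start: gcccgttccggTTGCATCAgcgtgggctcc
Nars, chr18:60275778-60275807 on the minus strand, element 14 bases before the start: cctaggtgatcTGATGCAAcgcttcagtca
Tars, chr2:62114811-62114840 on the minus strand, element 27 bases before the start: ctggcgtcccgTTGCATCAgctggttagct
Yars, chr5:146820190-146820212 on the plus strand, element 38 bases after the start: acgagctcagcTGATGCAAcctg

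The 7 genes with these letters had a median log2 difference of 0.18, with a range of -0.23 to 0.36. The 11 matched cytosolic genes without them had a median of 0.39, with a range of 0.06 to 0.76, and the 14 mitochondrial genes a median of 0.34. After rescaling the medians were -0.13, 0.06 and 0.11. Nitroglycerin and control libraries did not overlap for 2 of the 7 genes with the letters, Mars and Yars, for 7 of 11 without them and for 10 of 14 mitochondrial genes, beside 24.2% of all tested rows. After rescaling these counts were 0, 2 and 2, beside 3.78% of rows. Cars, Nars and Aars, the genes with negative differences, all held the letters. The ranges of the groups overlap, the comparison was drawn after the differences were known, and it is given without a test.

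**Figure D3:**
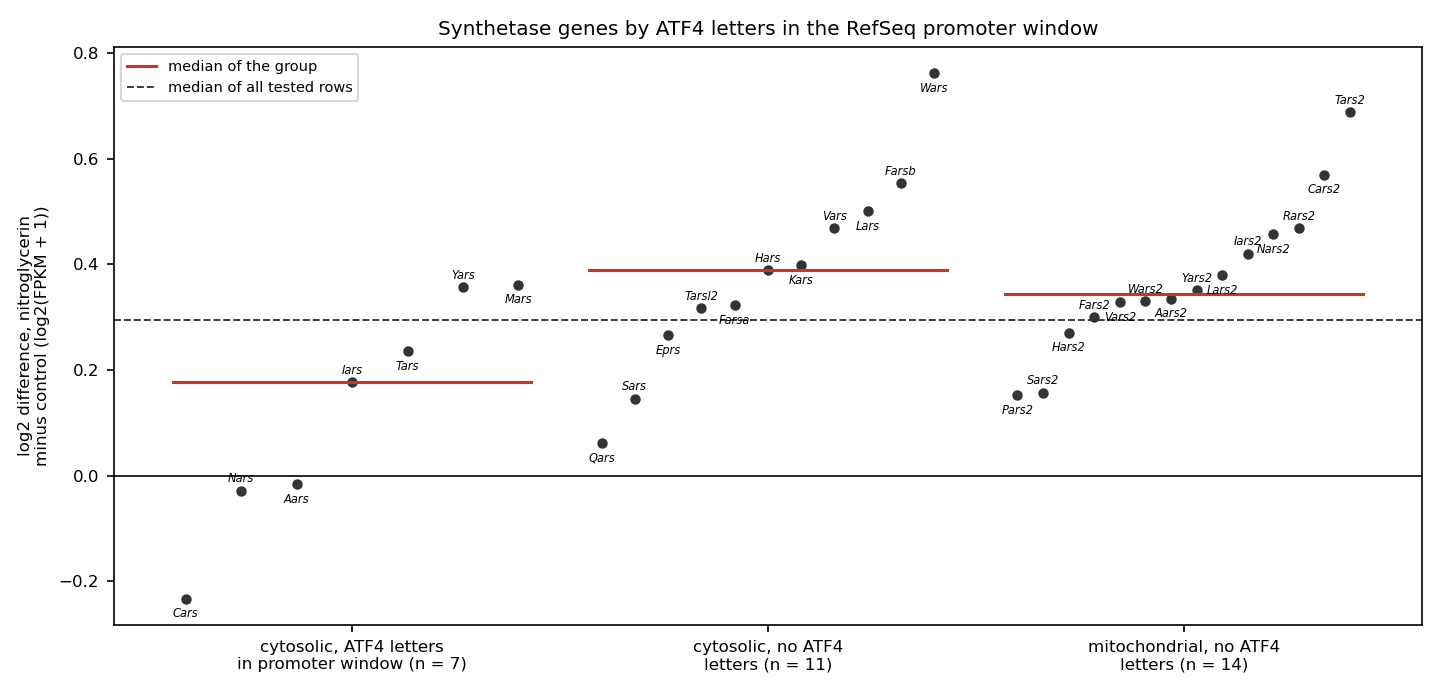
Difference between nitroglycerin and control libraries on the log2(FPKM + 1) scale for the 32 synthetase genes with a promoter window, split by whether the window holds the letters TGATGNAA, with group medians in red and the median of all tested rows dashed. The 7 genes with the letters lie between -0.23 and 0.36, and the 11 cytosolic genes without them between 0.06 and 0.76.

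Neither gene that passed the test held the ATF4 letters. The 250 bases before the start of each are printed, with the letters CCGGAAG of ETS-family factors (which include GABP, a regulator of many genes for mitochondrial proteins) in capitals where either strand has them.
Tars2, chr2:185999114-185999363 on the minus strand: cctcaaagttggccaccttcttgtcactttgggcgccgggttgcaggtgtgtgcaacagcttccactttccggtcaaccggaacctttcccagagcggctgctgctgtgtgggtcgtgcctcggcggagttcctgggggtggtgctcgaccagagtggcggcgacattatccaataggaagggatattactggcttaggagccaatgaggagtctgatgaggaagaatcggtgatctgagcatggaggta
Wars, chr6:133571646-133571895 on the minus strand: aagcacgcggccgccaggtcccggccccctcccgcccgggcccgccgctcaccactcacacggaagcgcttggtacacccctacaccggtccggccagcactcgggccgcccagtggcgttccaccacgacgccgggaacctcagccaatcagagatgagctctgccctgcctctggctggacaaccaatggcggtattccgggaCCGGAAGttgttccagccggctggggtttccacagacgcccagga
The ETS letters stood 45 bases before the Wars start and were not in the Tars2 window. Over both compartments they occurred in 15 of 32 synthetase windows, 9 of 18 cytosolic and 6 of 14 mitochondrial, beside 8.75% of all windows. An interferon-type element, GAAA and GAAA with 2 bases between them, occurred in 0 of 32 windows, that of Wars included, beside 3.92% of all windows. CACGTG, the E-box that Myc and other factors read, occurred in 5 cytosolic genes (Aars, Farsb, Iars, Tars and Vars) beside 6.42% of all windows. AAGATGGCG of YY1 occurred in 4 genes beside 1.73%, and the consensus palindrome of NRF1 in Wars2 alone beside 0.852%. All motifs were searched on both strands, and some lie in the same window (in Aars, Iars and Tars the ATF4 letters and the E-box).

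Hars and Hars2 stand head to head, with 243 of 300 window bases in common on opposite strands. The bases between their starts are printed on the plus strand, the direction of Hars2, with ETS letters in capitals, because the windows of both genes fall on them.
Hars and Hars2, chr18:28672713-28672855 on the plus strand: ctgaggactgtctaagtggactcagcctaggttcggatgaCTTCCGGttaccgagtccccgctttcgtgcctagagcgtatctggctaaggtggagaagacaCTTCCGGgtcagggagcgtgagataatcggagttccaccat
Hars had 6.07, 6.79, 7.09 and 7.21 FPKM in nitroglycerin libraries, against 3.53, 5.60, 5.54 and 5.35 FPKM in controls. Hars2 had 3.99, 4.59, 4.36 and 5.64 FPKM in nitroglycerin libraries, against 3.13, 3.20, 4.37 and 4.03 FPKM in controls. Hars was apart between groups and Hars2 overlapped, with log2 differences of 0.39 and 0.27 that did not pass (limma adjusted p = 0.102 and 0.181). The labels do not state whether counting used strand, so reads where the genes meet cannot be told apart.

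Within a library, the ratio of a mitochondrial gene to its cytosolic partner does not depend on how the library is scaled. Over 14 amino acids, the mean ratio was higher in nitroglycerin than in control libraries for 10 and lower for 4. For threonine the ratio Tars2 to Tars was 0.706, 0.581, 0.577 and 0.614 in nitroglycerin libraries, against 0.440, 0.358, 0.373 and 0.413 in controls. For asparagine Nars2 to Nars was 0.285, 0.189, 0.153 and 0.167 in nitroglycerin libraries, against 0.106, 0.117, 0.109 and 0.12 in controls. Both ratios were without overlap. Of all 14 ratios, 3 were without overlap in this direction and 0 in the other. No share over other pairs of genes was computed, so these counts have no background beside them.

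Cysteine had the largest change of the mean ratio, with Cars2 to Cars at 0.789 ± 0.291 in nitroglycerin libraries and 0.353 ± 0.0895 in controls (SD, n = 4 per group). The groups overlapped, as nitroglycerin replicate 2 at 0.386 lay within the control range of 0.240 to 0.456. Tryptophan went furthest the other way, with Wars2 to Wars at 0.545 ± 0.147 in nitroglycerin libraries and 0.774 ± 0.161 in controls, also with overlap. Histidine, valine and phenylalanine had slightly lower mean ratios in nitroglycerin libraries, at 0.911, 0.984 and 0.969 of the control ratio.

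Summed over genes, the 15 mitochondrial synthetases came to 38.4, 33.2, 38.2 and 40.6 FPKM in nitroglycerin libraries, against 20.2, 24.1, 26.4 and 27.1 FPKM in controls. The 21 cytosolic ones came to 148, 162, 175 and 159 FPKM in nitroglycerin libraries, against 109, 146, 137 and 135 FPKM in controls. As deposited, both sums were higher in each nitroglycerin library than in any control. The sums were not rescaled, so they do not show whether either difference holds on the other scale. After rescaling, 14 of 15 mitochondrial and 12 of 21 cytosolic genes had a log2 difference above 0. The 9 cytosolic genes below 0 included the abundant Qars, Aars, Nars and Sars, at -0.30, -0.38, -0.38 and -0.21. Kars, also abundant, was at 0.04. The mitochondrial sum was 25.9%, 20.5%, 21.8% and 25.5% of the cytosolic sum in nitroglycerin libraries, against 18.5%, 16.5%, 19.2% and 20.1% in controls. Those shares did not overlap, though nitroglycerin replicate 2 was close to control replicate 4. For comparison, tested rows within the range of means of the mitochondrial genes had a median ratio of means of 1.33, and those within the cytosolic range 1.32. The synthetase medians were 1.51 for the mitochondrial and 1.34 for the cytosolic genes. After rescaling these medians were 1.02, 1.01, 1.16 and 1.03, in the same order.

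**Figure D4:**
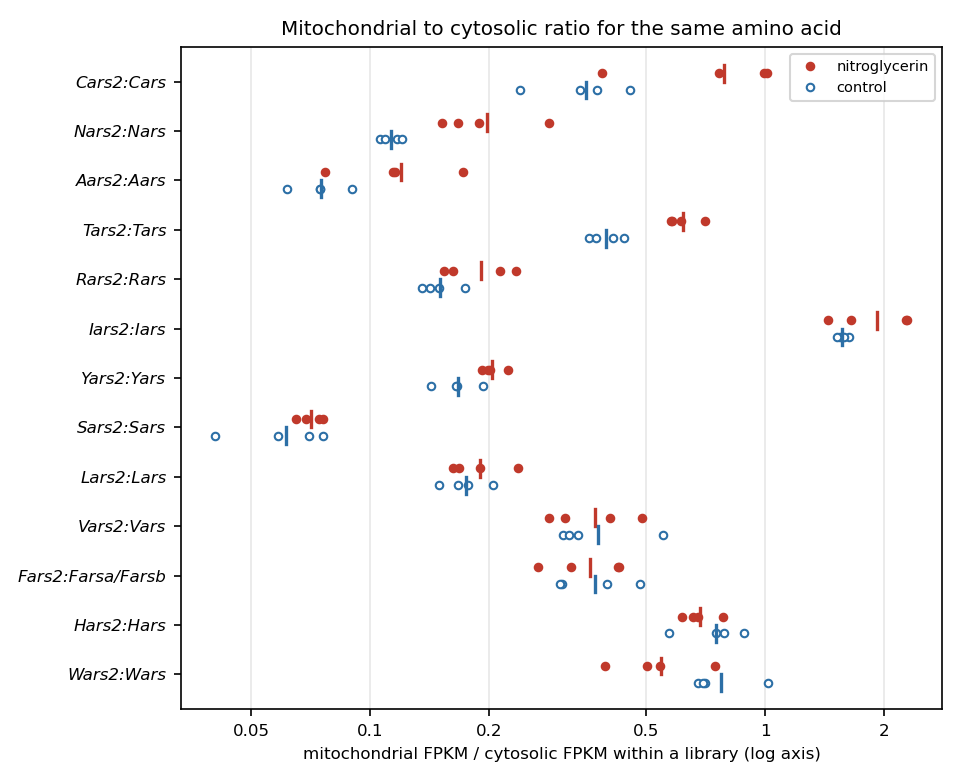
Ratio of mitochondrial to cytosolic synthetase FPKM for the same amino acid within each library (log axis), for 13 of the 14 amino acids, ordered by the ratio of group means, with nitroglycerin libraries as filled red points, controls as open blue points and means as vertical lines. Tars2 to Tars and Nars2 to Nars are without overlap, and Wars2 to Wars has the lowest ratio of means, 0.705.

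By catalytic class, the 16 class I genes had a median log2 difference of 0.37 and the 19 class II genes 0.32, with Eprs carrying both classes, and after rescaling 0.10 and 0.04. As deposited, nitroglycerin libraries were above all controls in 12 of 16 class I and 11 of 19 class II genes, beside 24.2% of all tested rows. After rescaling this held for 2 and 3 genes, beside 3.78% of rows. The difference between classes was not tested.

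None of the accessory genes of tRNA charging passed the test. Over 9 lists, 175 of 195 listed genes had a row and 141 were tested. Limma called 0 higher and 0 lower at an adjusted p under 0.05, with 62 higher and 1 lower of the 141 at an unadjusted p under 0.05, the threshold that 34.1% of all tested rows passed as higher and 1.02% as lower. After rescaling 5 were higher and 9 lower at that threshold, beside 5.5% and 6.44% of rows. The median over the 175 genes was 0.29, or 0.03 after rescaling, and over the 141 tested genes 0.31 and 0.02, beside 0.30 and 0.01 for all tested rows. Aimp1 and Aimp2 are scaffolds of the multi-synthetase complex. Aimp1 had 5.64, 5.39, 7.77 and 4.96 FPKM in nitroglycerin libraries, against 3.38, 3.81, 4.44 and 3.39 FPKM in controls, without overlap (log2 difference 0.54, limma adjusted p = 0.0660). After rescaling its log2 difference was 0.22 and the groups overlapped. Aimp2 averaged 4.44 ± 1.41 and 3.32 ± 0.940 FPKM in the nitroglycerin and control groups (SD, n = 4 per group), with overlap. The third scaffold on the list, Eef1e1, had no row under that symbol.

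Ears2 charges mitochondrial tRNA with glutamate, and the amidotransferase built from Qrsl1, Gatb and Gatc then turns part of that glutamate into glutamine, since mitochondria lack a glutamine enzyme. Ears2 had 2.06, 2.88, 3.61 and 2.25 FPKM in nitroglycerin libraries, against 1.51, 1.85, 1.90 and 1.92 FPKM in controls, without overlap (log2 difference 0.39, limma adjusted p = 0.105). Gatc averaged 4.53 ± 0.517 and 2.93 ± 0.101 FPKM in nitroglycerin and control libraries, also without overlap (SD, n = 4 per group; log2 difference 0.49, limma adjusted p = 0.0539). Gatb overlapped, with a log2 difference of 0.37. All 5 genes of this list had higher means in nitroglycerin aorta as deposited, where 86.6% of all tested rows had a log2 difference above 0. Of the 5, 3 were without overlap, beside 24.2% of all tested rows. After rescaling 1 was without overlap, beside 3.78%, and the log2 differences of Ears2, Gatc and Gatb were 0.13, 0.18 and 0.10, with overlap. Of the 6 proofreading and related genes, Aarsd1, an editing protein for wrongly charged alanine tRNA, had the lowest p as deposited (log2 difference 0.52, limma adjusted p = 0.0664). Prorsd1 and Pstk followed at 0.33 and 0.26. After rescaling Aarsd1, Prorsd1 and Pstk were at 0.22, 0.03 and 0.05.

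Of 38 tested genes of tRNA maturation and export, 20 were higher at an unadjusted limma p under 0.05, where 34.1% of all tested rows were. The median over the 49 genes of the list with a row was 0.31, and over the tested ones 0.32. After rescaling 0 of the 38 were higher and 0 lower at that threshold, beside 5.5% and 6.44% of rows. Both medians were then 0.07. Nsun2, a tRNA cytosine methyltransferase, averaged 3.71 ± 0.290 and 2.47 ± 0.191 FPKM in nitroglycerin and control libraries (SD, n = 4 per group; limma adjusted p = 0.0573). Elac2, which trims tRNA 3′ ends, and Pop4, a subunit of the RNase P that trims 5′ ends, had log2 differences of 0.47 and 0.67. After rescaling the log2 differences of Nsun2, Elac2 and Pop4 were 0.15, 0.16 and 0.40. RNA polymerase III, which transcribes tRNA genes, had a median of 0.30 over the 22 genes of its list, or 0.04 after rescaling. Polr3gl and Polr3c, subunits of the enzyme, were at 0.53 and 0.46, and Maf1, its repressor, at 0.47. After rescaling Polr3gl, Polr3c and Maf1 were at 0.30, 0.20 and 0.11.

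Of 12 tested mitochondrial translation factors, 8 were higher at an unadjusted limma p under 0.05, beside the 34.1% of all tested rows. Their median was 0.36, and that of the 15 genes with a row 0.34. After rescaling 0 of the 12 were higher and 0 lower at that threshold, beside 5.5% and 6.44% of rows. These medians were then 0.13 and 0.16. Lrpprc, which stabilises mitochondrial messenger RNA, averaged 5.66 ± 0.317 and 3.76 ± 0.366 FPKM in nitroglycerin and control libraries, and Tufm, the mitochondrial elongation factor that carries charged tRNA to the ribosome, 8.21 ± 1.37 and 5.09 ± 0.556 FPKM (SD, n = 4 per group). Their limma adjusted p were 0.0543 and 0.0581, and Gfm2, a ribosome recycling factor, had a log2 difference of 0.44. After rescaling the log2 differences of Lrpprc, Tufm and Gfm2 were 0.17, 0.25 and 0.22. The 22 cytosolic elongation and initiation factors had a lower median of 0.22, which became -0.14 after rescaling, when 5 were lower at an unadjusted limma p under 0.05, beside 6.44% of all tested rows, and 17 of 22 were below 0. As deposited, the lowest p-values in that list were those of Eef1d, an exchange factor of elongation factor 1, and of Eif2b2 and Eif2b4, subunits of the exchange factor of initiation factor 2. Their log2 differences were 0.37, 0.34 and 0.39, or 0.01, 0.05 and 0.07 after rescaling. On the rescaled values the lowest p-values were those of Eef2, Eef1a1 and Eef1g, at -0.47, -0.45 and -0.30 (limma adjusted p = 0.183, 0.212 and 0.243). Every nitroglycerin library was then below every control for 4 of the 22 genes, these included, beside 4.45% of all tested rows.

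Genes of the amino acid response gave mixed values. Atf4 itself had 4.94, 3.61, 8.65 and 5.29 FPKM in nitroglycerin libraries, against 2.88, 13.2, 3.78 and 3.12 FPKM in controls. Control replicate 2 was the highest of all libraries, the groups overlapped, and the log2 difference was 0.15 (limma adjusted p = 0.795). Asns, asparagine synthetase and a standard ATF4 target, was too low to test, at 1.78, 0.613, 0.464 and 0.397 FPKM in nitroglycerin libraries, against 0.439, 0.470, 0.190 and 0.122 FPKM in controls. Over the 38 genes of the list with a row the median was 0.20, or 0.01 after rescaling, and over the 25 tested ones 0.28, or -0.04 after rescaling. Of the 25, 8 were higher and 1 lower at an unadjusted limma p under 0.05, beside 34.1% and 1.02% of all tested rows. Lowest in p as deposited were Shmt2, a mitochondrial serine and glycine enzyme, Ddit3, the stress factor CHOP, and Slc1a4, a neutral amino acid transporter. Their log2 differences were 0.58, 0.61 and 0.70 (limma adjusted p = 0.0603, 0.0622 and 0.0650), or 0.29, 0.39 and 0.39 after rescaling. The gene lower as deposited was Nupr1, at -0.39 with overlap (limma adjusted p = 0.115). On the rescaled values, 2 genes were higher and 4 lower at an unadjusted limma p under 0.05, beside 5.5% and 6.44% of rows. Nupr1 then had the lowest p of the list, at -0.72 (limma adjusted p = 0.0978). Its nitroglycerin libraries were then all below the controls, the only such gene of the 38, with 2 genes the other way. Over all tested rows these shares were 4.45% and 3.78%.

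Of the growth regulators of protein synthesis, 14 were tested and 9 were higher at an unadjusted limma p under 0.05, beside 34.1% of all tested rows. On the rescaled values 2 of the 14 were higher and 0 lower at that threshold, beside 5.5% and 6.44% of rows. The median of the 14 was 0.37, and 0.05 after rescaling. Odc1, which makes polyamines and is a Myc target, Npm1, a nucleolar chaperone, and Rps6kb1, the S6 kinase under mTORC1, had log2 differences of 0.77, 0.71 and 0.46 (limma adjusted p = 0.0593, 0.0650 and 0.0713). After rescaling these differences were 0.46, 0.34 and 0.14 (limma adjusted p = 0.350, 0.405 and 0.615).

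Cell type markers also differed between the groups, and in whole aorta fewer cells of a type and less RNA per cell cannot be told apart. Of the 7 smooth muscle markers, 5 had lower means in nitroglycerin aorta, with a median log2 difference of -0.31, or -0.67 after rescaling, and limma called 0 on either scale. At an unadjusted limma p under 0.05, 1 was higher and 2 were lower as deposited, beside 34.1% and 1.02% of all tested rows. After rescaling 1 was higher and 4 were lower at that threshold, beside 5.5% and 6.44% of all tested rows. Myl9, a myosin light chain of smooth muscle, had 74.5, 78.2, 84.4 and 134 FPKM in nitroglycerin libraries, against 160, 134, 165 and 149 FPKM in controls. Every nitroglycerin library was below every control, at a ratio of means of 0.609, though nitroglycerin replicate 4 lay just under control replicate 2 (limma adjusted p = 0.0664, and 0.0949 after rescaling). Lmod1, a leiomodin of smooth muscle, went the other way without overlap as deposited, with a ratio of 1.84 (limma adjusted p = 0.0598). As deposited, 0.478% of all tested rows were without overlap in the direction of Myl9 and 24.2% in that of Lmod1.

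Endothelial markers summed to 62.4 to 71.6 FPKM in nitroglycerin libraries and 35.7 to 58.8 FPKM in controls, with 2 of 7 called higher by limma (Esam and Eng), beside 1.29% of all tested rows. Macrophage markers summed to 36.8 to 49.5 FPKM in nitroglycerin libraries and 22.1 to 31.1 FPKM in controls, with 1 of 6 called higher (Cd163). Both sums were without overlap as deposited. After rescaling limma called none of these 3 genes (adjusted p = 0.211 for Esam, 0.459 for Eng and 0.159 for Cd163). The rescaled sums overlapped, at 59.1 to 60.9 in nitroglycerin libraries and 39.9 to 71.1 in controls for endothelial and 30.9 to 43.2 and 28.4 to 34.7 for macrophage markers. Skeletal muscle markers summed to 19.9 to 28.0 FPKM in nitroglycerin libraries and 27.8 to 38.5 FPKM in controls. Of the 6 measured, 4 had lower means and 2 higher as deposited, and after rescaling 5 were below 0. Ckm was called lower on both scales (limma adjusted p = 0.0492, and 0.0350 after rescaling), beside 0.0616% and 0.1% of all tested rows. Mybpc2 was higher without overlap as deposited, at a ratio of means of 1.61 (limma adjusted p = 0.126), and Tnnt3 had a ratio of 1.15. Fibroblast markers summed to 281 to 364 FPKM in nitroglycerin libraries and 210 to 475 FPKM in controls, and neural markers to 1.37 to 3.55 and 1.63 to 2.74 FPKM.

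Adipocyte markers reached 114 FPKM in nitroglycerin replicate 1 and ranged over 14.4 to 114 FPKM in nitroglycerin libraries and 9.77 to 25.5 FPKM in controls. That library was the lowest nitroglycerin library for 11 of 21 cytosolic and 3 of 15 mitochondrial synthetase genes, and the highest for 4 and 3. Plasma cell markers summed to 2.42 to 4.70 FPKM in nitroglycerin libraries and 2.08 to 4.23 FPKM in controls. Of 6 measured T cell and B cell markers, 5 were under 0.1 FPKM in every library. The part of tissue composition in the synthetase differences was not tested, beyond a fit with the adipocyte marker score as a covariate, which called 0 synthetase genes and had 22 higher at an unadjusted limma p under 0.05.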

How the data were processed

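The authors deposited 1 table of FPKM per gene and library and 1 table of assembled lncRNA transcripts, with FPKM, coverage per base and 2 coding-potential scores, per the file headers. HISAT2 2.0, StringTie 1.3.0, Bowtie 0.12.2 and the builds Rnor_6.0 and mm8 are named in the submitters' processing notes, without roles. Counts were not analysed here, so counting intervals were not computed. The constant ratio of deposited coverage to FPKM in each library gave its depth, and the deposited scores were not used in a test.

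Groups were compared on log2(FPKM + 1), which understates the change of low genes, with limma 3.58.1 in R 4.3.3 (mean-variance trend, Benjamini-Hochberg adjustment, adjusted p under 0.05), on rows that reached 1 FPKM in 4 or more libraries. Ratios of means are on the FPKM scale. Per-library values were given for called genes, the 5 of lowest p in each direction and their partners in the other compartment; in addition Lars, Hars and Hars2 were chosen after their values were seen. Of the genes so selected, 1 is counted in the totals and not otherwise reported here. From each accessory list the 3 genes of lowest p as deposited, Ears2, Atf4, Asns and the scaffolds were named. Eef2, Eef1a1, Eef1g and Nupr1 were added for their p-values after rescaling. Members, lists, motifs and alternatives were chosen with earlier results of these data known. The fits were tested on simulated data. The labels do not state whether replicate numbers pair the libraries, and the main fit left them unpaired. Correlations of same-numbered deviations were 0.13, -0.01, -0.01 and 0.12, which cannot settle it. Python 3.11.15, pandas 2.3.3, SciPy 1.17.1 and matplotlib 3.10.9 were used.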

Additional observations from a re-analysis of the deposited data

Results flagged for a closer look

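Of 72 groups of 4 libraries examined (36 genes in each of 2 treatments), 6 held 1 library far from the other 3 by Dixon's gap criterion. That is 8.33% of groups, where chance alone gives about 1 in 20. No nitroglycerin library stood apart except in Rars, the arginine enzyme, at 11 FPKM in nitroglycerin replicate 3, against 8.15 to 8.57 FPKM in the other nitroglycerin libraries.

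The remaining 5 were all low values of control replicate 1. Lars stood at 4.53 FPKM there, against 6.07 to 6.11 FPKM in the other controls, and Iars2 at 4.96 FPKM, against 6.12 to 6.16 FPKM. Hars stood at 3.53 FPKM, against 5.35 to 5.60 FPKM, Farsa at 2.26 FPKM, against 3.90 to 4.08 FPKM, and Iars at 3.04 FPKM, against 3.89 to 4.03 FPKM. The median-of-ratios factor of control replicate 1 was 0.734, against 0.895 to 0.986 in the other controls. Without that library the log2 difference between nitroglycerin and control libraries was 0.41 for Lars, 0.35 for Iars2, 0.26 for Hars, 0.17 for Farsa and 0.10 for Iars.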

How the results depend on the processing

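The number of synthetase genes called higher was 2 and changed with the processing. With a pseudocount of 0.1, median-of-ratios scaling, quantile normalization or the adipocyte score as covariate it was 0. It was 1 (Tars2) with no filter, no mean-variance trend or rows of a symbol summed. It was 2 (Dars and Lars) at 5 FPKM, 7 with annotated rows only and 13 with array quality weights. Without 1 library it was 0 to 4, with 16 to 20 at an unadjusted limma p under 0.05. Genes called lower were 0 throughout. Tars2 kept a log2 difference of 0.38 to 0.89 (limma adjusted p 0.0204 to 0.275) and Wars of 0.47 to 1.02 (0.0229 to 0.298). The replicate block called 0 synthetase genes and 0 of all rows, and so did the block with median-of-ratios scaling, beside 18 and 4 synthetase genes higher at an unadjusted limma p under 0.05.

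Accessory genes called were 0, except 4 at 5 FPKM, 9 with annotated rows and 20 with weights. Over all rows, 175 calls became 7 with a pseudocount of 0.1, 26 with no filter, 384 at 5 FPKM, 17 after median-of-ratios scaling, 15 after quantile normalization, 41 with no trend, 1936 with weights, 4 with the covariate, 30 with rows summed and 828 with annotated rows. Without 1 library they were 5 to 284. The cause of these changes was not tested.

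Some differences changed sign. After median-of-ratios scaling, with or without the replicate block, log2 differences were -0.0745 for Eprs, -0.0531 for Gars, -0.042 for Hars2, -0.13 for Iars, -0.30 for Qars, -0.21 for Sars and -0.10 for Tars. After quantile normalization they were -0.0265 for Eprs, -0.0348 for Hars2, -0.13 for Iars, -0.22 for Qars, -0.13 for Sars and -0.0638 for Tars. With the covariate they were 0.15 for Aars, 0.12 for Nars and -0.00376 for Qars. Without 1 library the range was -0.15 to 0.12 for Aars, -0.16 to 0.0858 for Nars, -0.0347 to 0.17 for Qars and -0.0236 to 0.24 for Sars. Every other tested gene kept its sign in these 8 fits. Read counts per gene were not analysed here, so the counting error of low genes could not be set beside these differences.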
